A study of Mus musculus with 18 samples.

Results

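The genes of the mitochondrial ribosome were followed through muscle differentiation and through depletion of the histone methyltransferase Setd2 in C2C12, a mouse line of muscle precursor cells. Protein-coding genes whose symbol begins with Mrpl or Mrps followed by a digit were taken, which gave 78 of 21702 protein-coding genes (47311 genes of all kinds). By symbol, 49 belong to the large subunit and 29 to the small one. The mitochondrial ribosome sits inside the mitochondrion and translates the few respiratory chain proteins that mitochondrial DNA still encodes. Its RNA parts come from mitochondrial DNA, whereas its protein parts are encoded in the nucleus, made in the cytosol and imported. Some of these proteins have a bacterial counterpart and others were added in the mitochondrial lineage. Symbols are an imperfect guide to position: Mrps18a and Mrps30 carry small-subunit names but sit in the large subunit, and Mrps36 is now known as a subunit of the alpha-ketoglutarate dehydrogenase complex.

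PolyA RNA was sequenced in 18 libraries, 3 in each of 6 groups. Undifferentiated cells (myoblasts) and differentiated cells (myotubes) were each given a control siRNA or either of 2 siRNAs to Setd2, here siRNA 1 and siRNA 2. RNA of all groups was taken right after stretching, so no group used here shows unstretched cells. All cells come from 1 line. The labels call the libraries of a group biological replicates without saying whether they were separate cultures, so p-values measure the spread between these libraries. The third myoblast library of siRNA 2 carries SETD3 in its column name where its label has SETD2, and the third myotube control carries NT_2 where the other myotube controls carry NT_1. Both were kept, and the set's counts that rest on them are also given without them. Within 3 groups a pair of libraries of the same name prefix was closer than any other pair of its group: a chi-square per degree of freedom over genes, which is near 1 for sampling noise alone, was 2.69 for control myoblasts 2 and 3, 2.6 for siRNA 1 myoblasts 1 and 2 and 3.22 for siRNA 2 myotubes 2 and 3. All other pairs within a group had 10.38 to 61.43. The 3 close pairs exceeded sampling noise and were counted as separate samples. Whether each pair came from separate cultures is not given, so the replication behind n = 3 in those groups is uncertain. The SETD3-named library was the farthest of its group: it had 61.43 with siRNA 2 myoblasts 1 and 29.06 with 2, which shares its prefix. Libraries 1 and 2 of that group had 15.18. Its share of reads resembling ribosomal RNA was also the highest of the group (4.09%).

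Library totals ran from 43.5 to 66.6 megareads (estimated counts), of which the 78 genes took 0.213% to 0.288%. Setd2 was at 110.6 ± 10.4 CPM (TMM-scaled counts relative to library size; mean ± SD, n = 3) in control myoblasts, against 40.1 ± 4.41 for siRNA 1 and 43.9 ± 3.09 for siRNA 2. The myotube values were 103.0 ± 3.19, 44.7 ± 11.6 and 35.5 ± 2.39 CPM. Myog, a driver of muscle differentiation, averaged 19.4 CPM in control myoblasts and 902.7 in control myotubes, and Mki67, a marker of dividing cells, 870.6 and 154.9. Of the other myoblast markers, Myf5, Pax7 and Top2a were lower in control myotubes, and Myod1, Cdh15 and Des higher. For siRNA 1 and siRNA 2, Myog was at 25.4 and 37.8 CPM in myoblasts and 838.4 and 845.6 in myotubes. Mki67 was at 962.2 and 1083 in myoblasts and 107.4 and 115.7 in myotubes. The part of these markers in the results was not tested. Of 4 fibroblast markers, Col1a1 (60.8, 100.6 and 150.1 CPM in control, siRNA 1 and siRNA 2 myoblasts; 221.2, 193.8 and 219.1 in myotubes) and Pdgfra (group means of 8.0 to 10.6) were present, Dpt stayed at or below 0.483 CPM in any library and Tcf21 was at 0. Col1a1 thus moved with stage and, in myoblasts, with siRNA; its part in the results was not tested. The macrophage marker Cd68 had group means of 0.622 to 1.48 CPM, higher in myoblasts, while Ptprc and Csf1r did not exceed 0.353 in any library and Adgre1 was at 0. The endothelial markers Pecam1, Cdh5, Kdr and Tie1 did not exceed 0.543 CPM and the adipocyte markers Adipoq, Plin1 and Cidec 0.0353 in any library. The share of reads resembling ribosomal RNA was 1.2% to 1.36% in control myoblasts, 3.56% to 3.9% for siRNA 1 and 1.45% to 4.09% for siRNA 2. In myotubes it was 1.27% to 2.29%, 1.5% to 2.88% and 2.26% to 2.99%, so that it was also high for siRNA 2; its part in the results was not tested.

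All 78 genes passed the filter on low counts in every fit. Per length, the most abundant over the 18 libraries were Mrpl52 (mean 213 TPM, a length-corrected share of the library), Mrps21 (198.7), Mrpl33 (192.5), Mrpl42 (186.7) and Mrps6 (160.6). The least abundant were Mrpl57 (10.3 TPM), Mrpl1 (17.0), Mrpl11 (18.9), Mrpl55 (22.1) and Mrpl46 (23.5). Control myoblasts spanned 9.67 to 238.4 TPM, a 24.7-fold range, with a median of 64.0 TPM. The lower and upper quartiles were closer, at 48.0 and 99.4 TPM. Mrps6 was the most abundant member in control myoblasts (238 ± 20.8 TPM) but not in control myotubes (84.5 ± 4.54 TPM), where Mrps21 led (222 ± 6.08 TPM).

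Promoter windows from RefSeq (GRCm38.p6, 250 bases before to 50 after the start) were found for 69 of the 78 genes and searched on both strands for the short motifs of factors known for nuclear genes of mitochondria. CCGGAAG, the core read by ETS factors such as GABPA, stood in 26 of the 69 windows (37.7%), against 9.93% of the 300-base windows of all 27025 genes. AAGATGGC, the core read by YY1, stood in 12 (17.4% against 3.19%), and GCATGCGC, a core of the NRF1 site, in 8 (11.6% against 3.05%). GGGCGG, read by SP1, stood in 34 (49.3% against 38.2%), and the E-box CACGTG in 5 (7.25% against 8.09%). The ETS core stood in 15 of 43 large-subunit and 11 of 26 small-subunit windows, and the NRF1 core in 7 and 1. A match of letters is not a shown binding site.

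Stretches of 7 of these promoters are printed for members named below, to set promoters with and without the motifs side by side. Each is a part before the start that no annotated exon covers, 5′ to 3′ on the gene's strand, with motif letters in capitals. Mrpl43 (chr19:45006443-45006557, minus strand) has the ETS core 2 times, and Mrps22 (chr9:98601680-98601799, minus strand) and Mrps27 (chr13:99344706-99344785, plus strand) have it as well. Mrpl10 (chr11:97041440-97041559, plus strand) has the NRF1 core, and Mrps6 (chr16:92058150-92058269, plus strand) the SP1 core. Mrpl12 (chr11:120484493-120484612, plus strand) and Mrpl50 (chr4:49521094-49521175, minus strand) have none of the searched letters in the stretch shown.
Mrpl43: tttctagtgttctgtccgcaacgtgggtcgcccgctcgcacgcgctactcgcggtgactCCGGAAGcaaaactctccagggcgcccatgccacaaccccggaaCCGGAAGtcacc
Mrps22: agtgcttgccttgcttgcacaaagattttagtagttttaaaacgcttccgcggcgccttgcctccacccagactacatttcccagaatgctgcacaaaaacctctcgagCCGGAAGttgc
Mrps27: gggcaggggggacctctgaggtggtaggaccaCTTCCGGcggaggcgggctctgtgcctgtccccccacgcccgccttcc
Mrpl10: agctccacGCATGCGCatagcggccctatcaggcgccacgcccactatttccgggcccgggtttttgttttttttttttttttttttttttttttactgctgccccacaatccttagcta
Mrps6: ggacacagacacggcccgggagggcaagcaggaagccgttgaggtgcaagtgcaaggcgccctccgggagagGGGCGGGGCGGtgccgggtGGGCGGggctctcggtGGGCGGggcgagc
Mrpl12: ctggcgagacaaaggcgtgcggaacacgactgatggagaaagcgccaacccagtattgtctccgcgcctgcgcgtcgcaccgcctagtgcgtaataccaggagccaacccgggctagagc
Mrpl50: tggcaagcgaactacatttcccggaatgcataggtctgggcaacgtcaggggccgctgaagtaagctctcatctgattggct

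The summed level of the set was lower in myotubes than in myoblasts, lower in myoblasts given siRNA 2 and higher in myotubes given either siRNA. Scaled over all 18 libraries, the sum over the 78 genes was 2733, 2704 and 2712 CPM in control myoblasts, 2727, 2721 and 2784 for siRNA 1 and 2565, 2519 and 2520 for siRNA 2. In myotubes it was 2163, 2197 and 2206 CPM in controls, 2316, 2339 and 2290 for siRNA 1 and 2418, 2467 and 2406 for siRNA 2. The siRNA 2 myoblasts lay below all other myoblast libraries, and the 3 myotube groups did not overlap. On the TPM scale the siRNA 1 myoblasts (6058 ± 25.9) lay below their controls (6221 ± 57.9). In myotubes the sums were 5200 ± 114.5, 5369 ± 50.9 and 5481 ± 107.3 TPM, and siRNA 1 overlapped both other groups. The steps that involve siRNA 1 thus depend on the scale. The siRNA 2 myotubes (5401 to 5603 TPM) lay above their controls (5111 to 5329) on this scale too. The sums were not tested.

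**Figure D1:**
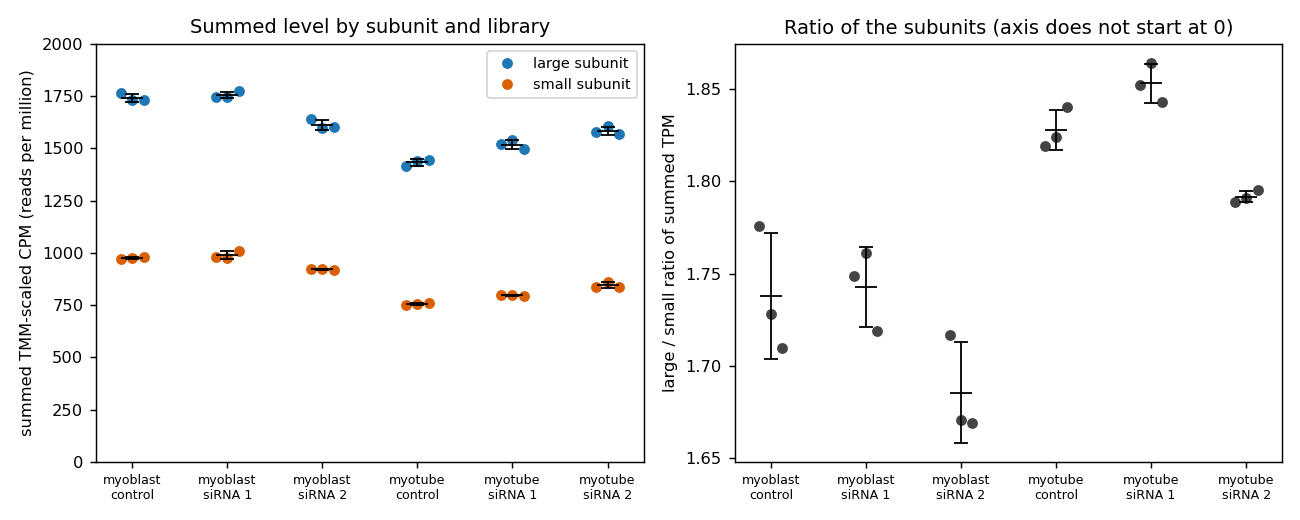
Left, summed TMM-scaled CPM of the large-subunit (49 genes) and small-subunit (29 genes) members in each library, by group; right, the ratio of the summed TPM of the subunits, on an axis that does not start at 0. Points are libraries, with the mean and SD of 3. In myotubes the sums are highest for siRNA 2, while its ratio (mean 1.79) lies below that of the controls (1.83).

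The large-to-small ratio of summed TPM was 1.74 ± 0.0341 (SD, n = 3) in control myoblasts, 1.74 ± 0.0216 for siRNA 1 and 1.69 ± 0.0272 for siRNA 2. In myotubes it was 1.83 ± 0.011 in controls, 1.85 ± 0.0105 for siRNA 1 and 1.79 ± 0.00306 for siRNA 2. The control myotubes (1.819 to 1.84) lay above the control myoblasts (1.71 to 1.776), and the siRNA 2 myotubes (1.789 to 1.795) below both other myotube groups. From control myoblasts to control myotubes the large-subunit sum went from 3949 to 3361 TPM and the small-subunit sum from 2272 to 1839. Mrps6 alone went from 238.4 to 84.5 TPM within the small-subunit sum. All ratios given include Mrps6, so no change in the balance of the subunits is read from them. With Mrps18a and Mrps30 counted in the large subunit and Mrps36 left out, the control ratios were 2.011 in myoblasts and 2.096 in myotubes.

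Most of the set was lower after differentiation. The stages share no library name prefix and were tabulated separately, so a difference of stage and one of prefix cannot be told apart. Between control myotubes and control myoblasts, 52 of the 78 genes fell and 16 rose (edgeR's quasi-likelihood test, Benjamini-Hochberg adjusted p under 0.05 over all genes tested), where 38.1% of all genes tested fell and 39.4% rose. The median log2 fold change was -0.26, against 0.00 over all genes. Of the large-subunit members 31 fell and 10 rose (median -0.24), and of the small-subunit members 21 fell and 6 rose (median -0.35). In bulk RNA, fewer cells of a kind and less RNA per cell cannot be told apart. Proteins of the cytosolic ribosome fell in 84 of 85 cases (median -0.64), whereas of 81 nuclear genes of the respiratory chain 61 rose and 6 fell (median 0.32). Without the NT_2 control 51 members fell and 14 rose. The median of the mitochondrial ribosome lay between those of the other two groups.

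Mrps6, a small-subunit protein with a bacterial counterpart (chr16:92058270-92112227, mm10), fell most. It was at 78.8, 89.1 and 92.7 CPM in control myoblasts and 29.2, 32.6 and 29.7 CPM in control myotubes (log2 fold change -1.51 ± 0.10 SE, adjusted p = 1.02e-09, edgeR). The groups were far apart, although Mrps6 shares 159 exon bases with Slc5a3 on the same strand. Mrpl12, the stalk protein that recruits translation factors (chr11:120484613-120489065), was at 101.0, 102.0 and 98.2 CPM and then 44.3, 46.1 and 47.6 CPM (-1.13 ± 0.04 SE, adjusted p = 7.49e-16, edgeR). Mrps18b, a mitochondria-specific relative of the bacterial S18 protein, went from 55.6 ± 1.72 to 26.8 ± 0.508 CPM (-1.05), and Mrpl20, with a bacterial counterpart, from 50.8 ± 1.23 to 25.5 ± 0.334 CPM (-0.99). Mrps27, a small-subunit protein with RNA-binding repeats, changed by -0.85 and Mrpl34 by -0.81.

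A minority rose. Mrps14, a small-subunit protein with a bacterial counterpart, was at 16.1, 15.4 and 14.5 CPM in control myoblasts and 22.8, 21.4 and 23.4 CPM in control myotubes (0.55 ± 0.06 SE, adjusted p = 1.1e-07, edgeR). Each myotube value exceeded the highest myoblast value. Next came Mrpl23 (0.43), Mrps23 (0.37), Mrps31 (0.37), Mrps21 (0.33) and Mrpl53 (0.31). Within the S18 family, Mrps18a fell (-0.41) as Mrps18b did, while Mrps18c changed by -0.01 (edgeR adjusted p = 0.867). Mrpl41 (0.06) and Mrps12, a protein of the decoding region (-0.12), missed the threshold too, and Mrpl58, a release factor built into the large subunit, fell by 0.47.

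By origin, 22 of 30 large-subunit members with a bacterial counterpart fell (median -0.26), against 9 of 19 mitochondria-specific ones (-0.07). In the small subunit the falls were 12 of 16 (-0.33) and 6 of 10 (-0.23). These classes were written down with results known, and the difference between them was not tested.

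In myoblasts the 2 siRNAs gave different counts. With siRNA 1, 10 of the 78 genes rose and 1 fell, where 11.6% of all genes rose and 8.44% fell, so that the rising share (12.8%) was near the background. The median was 0.02, against 0.00 over all genes. On the TPM scale with limma the split turned to 2 rising and 7 falling (median -0.04), and with the name prefix of the libraries in the model it was 13 and 9, so no direction is given for the set. Leaving out control 1, 2 or 3 left 7, 2 and 4 calls, leaving out an siRNA 1 library 6, 5 and 6, and leaving out the SETD3-named library 8. Without control 2 the split was 1 up and 1 down.

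Mrps34, a mitochondria-specific small-subunit protein (chr17:24895116-24897502), rose most with siRNA 1 and rose with siRNA 2 as well. It was at 22.8, 22.1 and 21.0 CPM in controls, 27.0, 26.4 and 25.8 for siRNA 1 and 26.2, 24.2 and 26.7 for siRNA 2. Each depleted library lay above the controls (edgeR 0.27 ± 0.05 SE, adjusted p = 0.0026, and 0.23 ± 0.05 SE, adjusted p = 0.00344). Its exons share 1309 bases with Mapk8ip3 on the opposite strand and 763 with Nme3 on the same strand, and whether the libraries keep strand is not given. Mrpl11, at the base of the stalk (0.17 and 0.17), and Mrpl44, with a ribonuclease III-like fold (0.16 and 0.16), rose with both siRNAs. Mrpl10, which anchors the stalk, fell with both (-0.13 and -0.18). Mrpl43 (0.19), Mrps2 (0.18), Mrps10 (0.18) and Mrpl2 (0.16) rose with siRNA 1. Of these siRNA 1 calls only that of Mrps34 held in every alternative run for it; the siRNA 1 call of Mrpl44 was not followed there, and the siRNA 2 calls of Mrpl11 and Mrpl44 were lost in at least 1.

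With siRNA 2, 25 of the 78 genes fell and 3 rose, where 16.5% of all genes fell and 17.1% rose. The median was -0.07, against 0.00. Without the library whose column name holds SETD3, 17 fell and 1 rose. Falls were found in both subunits (16 of 49 large, 9 of 29 small), with no common order by origin: 9 of 19 mitochondria-specific and 7 of 30 bacterial-type members of the large subunit fell, against 3 of 10 and 6 of 16 in the small. Library names carry the prefixes C14 and D2, whose meaning is not given. The median difference was -0.07 within C14, where 1 library stood against 1, and -0.08 within D2, with 2 against 2.

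Mrpl50, a mitochondria-specific large-subunit protein (chr4:49512596-49521093), fell most. It was at 37.7, 37.1 and 37.7 CPM in controls, 35.0, 37.1 and 34.0 for siRNA 1 and 23.0, 22.2 and 20.8 for siRNA 2. The siRNA 2 libraries lay below all others (-0.77 ± 0.05 SE, adjusted p = 1.69e-07, edgeR), whereas siRNA 1 gave -0.08 (edgeR adjusted p = 0.237). Mrpl38, a mitochondria-specific protein of the central protuberance (chr11:116131817-116138868), was at 63.1, 59.5 and 58.7 CPM in controls, 58.6, 59.6 and 60.6 for siRNA 1 and 39.3, 42.4 and 42.0 for siRNA 2. Here too the siRNA 2 libraries stood alone (-0.55 ± 0.04 SE, adjusted p = 7.39e-07, edgeR). Neither gene shares exon bases with another gene.

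Mrps28 went from 16.2 ± 0.609 to 11.8 ± 0.575 CPM with siRNA 2 (-0.46), Mrpl57 from 11.6 ± 1.11 to 8.7 ± 0.794 (-0.42) and Mrps14 from 15.7 ± 0.814 to 11.8 ± 0.916 (-0.41). Mrpl53 (-0.35) shares 695 exon bases with the coding gene Gm42688 on the same strand, so reads of the pair may be divided between them. Mrpl12 (-0.29), Mrps18b (-0.28) and Mrpl41 (-0.19) fell as well.

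Set against each other in myoblasts, siRNA 2 was below siRNA 1 for 28 of the 78 genes and above it for 0 by edgeR (37 had an unadjusted p under 0.05; DESeq2 gave 25 and 0), where 14.3% of all genes were below and 12.1% above. The median was -0.09, against 0.00, and 19 were below without the SETD3-named library. Mrpl50 (-0.69), Mrpl38 (-0.53), Mrps14 (-0.42), Mrpl57 (-0.40), Mrps28 (-0.38) and Mrps9 (-0.32) led. Setd2 itself had a difference of 0.13 ± 0.10 SE between the siRNAs (edgeR adjusted p = 0.406).

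**Figure D2:**
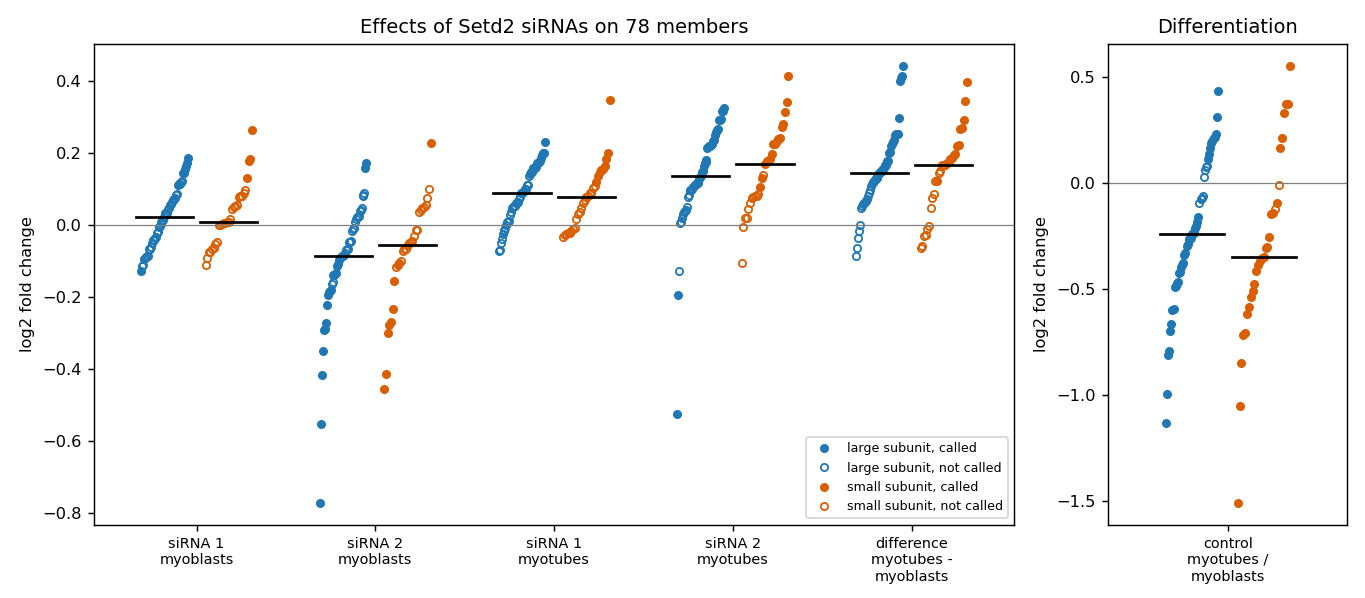
Log2 fold change of each of the 78 members in each comparison, by subunit, filled where the adjusted p was under 0.05; black bars are medians by subunit. Most points lie below 0 for siRNA 2 in myoblasts (median -0.07) and above 0 for siRNA 2 in myotubes (median 0.14), and Mrpl50 is the lowest point of both.

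In myotubes members of the set rose with each siRNA. With siRNA 1, 23 of the 78 genes rose and 0 fell by edgeR (30 had an unadjusted p under 0.05; DESeq2 gave 20 and 0), where 11.0% of all genes rose and 9.57% fell, with a median of 0.09 against 0.00. With siRNA 2, 43 rose and 2 fell, where 15.8% of all genes rose and 16.4% fell, with a median of 0.14 against -0.01. Both subunits took part: 15 of 49 large and 8 of 29 small members rose with siRNA 1, and 26 and 17 with siRNA 2. Within the prefixes C13 and D1 the medians were 0.11 and 0.08 for siRNA 1, and 0.14 and 0.14 for siRNA 2. C13 held 1 library of each siRNA and 2 controls, and D1 held 2 of each siRNA and 1 control.

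Single libraries and the scale moved these counts. For siRNA 1, 11, 10 and 14 rose without control 1, 2 or 3, 11 without the second siRNA 1 library, 12 with libraries of the same prefix summed and 4 on the TPM scale. On that scale the median for siRNA 1 was 0.033 over the members and -0.046 over all genes. For siRNA 2, 34 rose and 1 fell without the NT_2 control, and 19 and 3 on the TPM scale. Beside them, 36 of 81 respiratory chain genes rose with siRNA 1 and 66 with siRNA 2 (medians 0.11 and 0.27), and 10 and 33 of 84 cytosolic ribosomal proteins (0.06 and 0.10). All these comparisons share their control libraries.

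Mrps26, a mitochondria-specific small-subunit protein (chr2:130563742-130568695), rose most with each siRNA. It was at 22.7, 23.6 and 23.8 CPM in control myotubes, 28.3, 32.6 and 28.5 for siRNA 1 and 31.8, 32.8 and 29.0 for siRNA 2. Each depleted library lay above the controls (edgeR 0.35 ± 0.06 SE, adjusted p = 0.00227, and 0.42 ± 0.06 SE, adjusted p = 0.000356). On average 67.7% of its estimated count lay on transcripts not annotated as coding. Mrpl42, a mitochondria-specific large-subunit protein, was at 43.0, 42.0 and 45.4 CPM in controls, 52.3, 51.1 and 49.5 for siRNA 1 and 55.6, 53.5 and 53.5 for siRNA 2 (0.23 and 0.32). Mrps23 went from 41.9 ± 0.3 CPM to 46.5 ± 0.635 and 53.2 ± 1.06 (0.15 and 0.34). Neither gene's groups overlapped.

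Mrpl12, which fell with siRNA 2 in myoblasts, was at 43.4, 44.7 and 46.6 CPM in control myotubes, 52.2, 49.5 and 47.6 for siRNA 1 and 57.5, 57.1 and 54.3 for siRNA 2. The groups did not overlap (edgeR 0.15 ± 0.04 SE, adjusted p = 0.0334, and 0.33 ± 0.04 SE, adjusted p = 0.00017). Mrpl18 (0.16 and 0.32), Mrps24 (0.17 and 0.31), Mrpl43 (0.20 and 0.26) and Mrpl44 (0.14 and 0.29) rose with both siRNAs. So did Mrpl41 (0.17 and 0.18), Mrps30 (0.15 and 0.28), Mrpl57 (0.20 and 0.16), Mrpl53 (0.19 and 0.24) and Mrps15 (0.20 and 0.18). The siRNA 1 calls of Mrpl43, Mrpl53, Mrpl57 and Mrps15 were lost in at least 1 alternative. Those of Mrpl12, Mrpl18, Mrps23, Mrps24, Mrpl44, Mrpl41 and Mrps30 were not followed one by one through the alternatives. On the TPM scale only 4 members in all rose with siRNA 1. Mrps12 (0.23), Mrps18a (0.17) and Mrps36 (0.20) passed with siRNA 2 and missed the threshold with siRNA 1. Mrpl58 (0.10 and 0.11), Mrps18b (-0.03 and -0.01) and Mrps18c (-0.01 and 0.06) passed with neither.

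Mrpl50 went against the set. It was at 41.2, 41.0 and 42.3 CPM in control myotubes, 40.4, 38.9 and 39.1 for siRNA 1 and 29.0, 29.2 and 28.3 for siRNA 2. The siRNA 2 libraries lay below both other groups (-0.53 ± 0.04 SE, adjusted p = 1.66e-06, edgeR), and siRNA 1 gave -0.07 (edgeR adjusted p = 0.185). The difference for siRNA 2 was -0.53 within C13 (1 library against 2 controls) and -0.51 within D1 (2 libraries against 1 control). Mrpl48 was the other member to fall with siRNA 2 (-0.19 ± 0.06 SE, adjusted p = 0.0247, edgeR), and its call was lost without control 2 or 3 (adjusted p = 0.0791 and 0.106, edgeR) or siRNA 2 library 2 or 3 (0.0757 and 0.0706).

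Set against each other in myotubes, siRNA 2 was above siRNA 1 for 21 of the 78 genes and below it for 2, where 7.76% of all genes were above and 9.36% below, with a median of 0.07 against 0.00. The TPM scale gave 5 and 4, leaving out the NT_2 control 19 and 2, and summing libraries of the same prefix 7 and 1. Calls numbered 9 and 6 without siRNA 1 library 2 or 3, and 7 and 15 without siRNA 2 library 2 or 3. Mrpl50 led the falls (-0.45 ± 0.04 SE, adjusted p = 1.26e-05, edgeR) and Mrpl33 was the other (-0.17). Mrps6 (0.26), Mrpl4 (0.20), Mrps35 (0.20), Mrps23 (0.19), Mrps22 (0.19) and Mrpl51 (0.19) led the rises. Mrpl50 and Mrpl4 held their call in every alternative, and the other members named here lost it in at least 1. Setd2 itself had a difference of -0.33 ± 0.17 SE (edgeR adjusted p = 0.247). Its siRNA 1 libraries were uneven, at 58.15, 37.85 and 38.11 CPM.

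**Figure D3:**
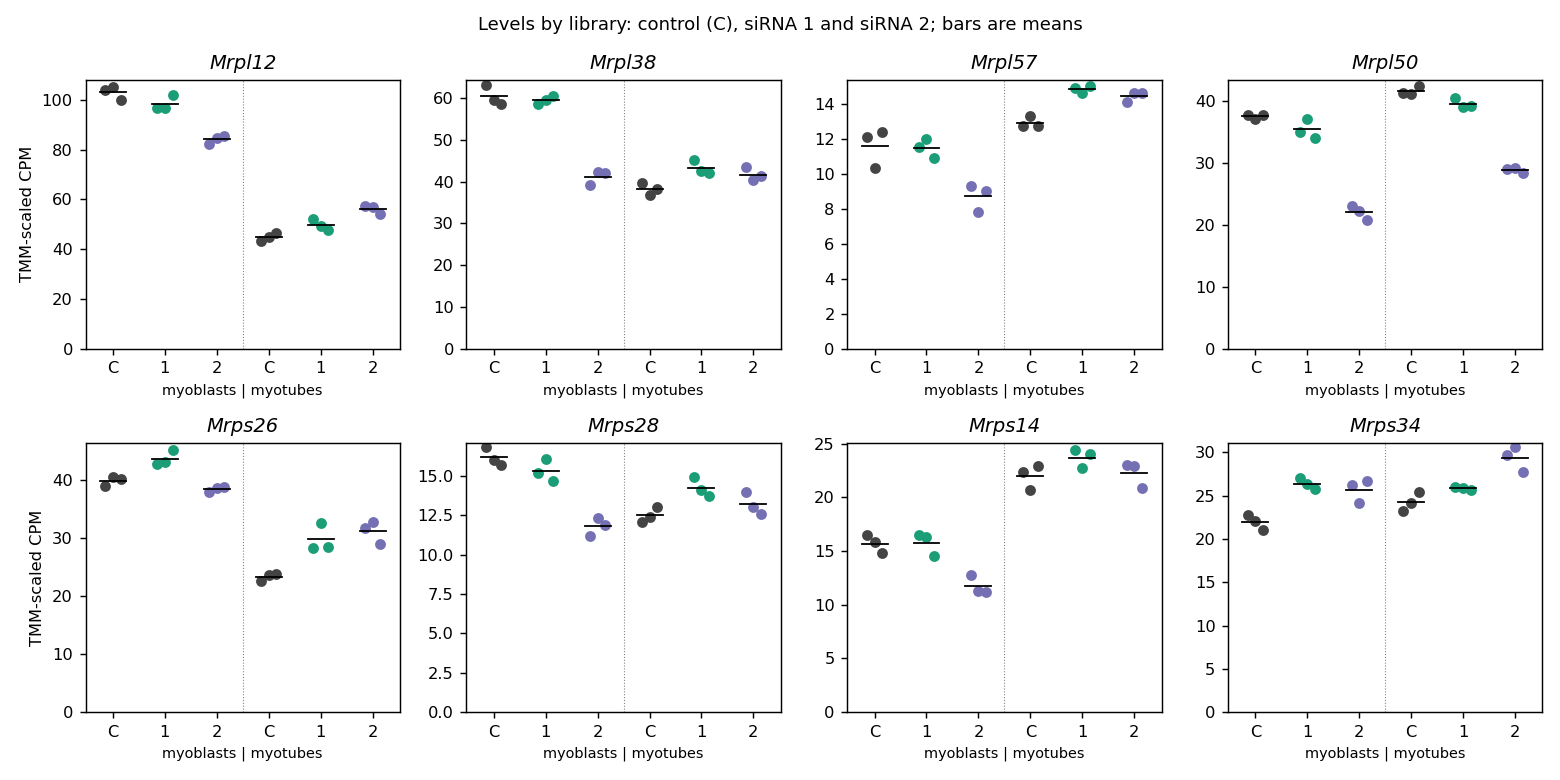
TMM-scaled CPM of 8 members in each library by group, with bars at the means of 3; each stage was scaled on its own, so values are to be compared within a stage. Mrpl50 is low for siRNA 2 in both stages (means 22 and 28.8 CPM, against 37.5 and 41.5 in controls), and Mrps26 and Mrpl12 are high for both siRNAs in myotubes.

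Averaged over the 2 siRNAs, the effect of depletion differed between the stages. The mean effect of both siRNAs was higher in myotubes than in myoblasts for 38 of the 78 genes and lower for 0 by edgeR (46 had an unadjusted p under 0.05; DESeq2 gave 37 and 0), where 10.6% of all genes were higher and 12.8% lower. The median of this difference was 0.15, against 0.00 over all genes, with 24 of 49 large-subunit (median 0.14) and 14 of 29 small-subunit members called (0.17). By siRNA, the median effect was 0.02 in myoblasts and 0.09 in myotubes for siRNA 1, and -0.07 and 0.14 for siRNA 2. The difference between stages was not tested for each siRNA alone. Of the respiratory chain genes 55 of 81 were higher and 2 lower, and of the cytosolic ribosomal proteins 27 of 85 and 2. Without the first myotube control 25 members were called, without the NT_2 control 34 and without the SETD3-named library 31.

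Mrpl38 had the largest difference (0.44 ± 0.05 SE, adjusted p = 3.43e-06, edgeR): siRNA 2 lowered it in myoblasts (-0.55), and in myotubes it rose with siRNA 1 and siRNA 2 (0.18 and 0.13). Mrpl12 followed (0.42 ± 0.05 SE, adjusted p = 3.53e-06, edgeR). Mrpl53 (0.41) and Mrpl57 (0.40) fell with siRNA 2 in myoblasts and rose with both siRNAs in myotubes. Mrps28 (0.40) rose with siRNA 1 in myotubes (0.18) and was not called there with siRNA 2 (0.08). Mrps26 (0.35) changed less in myoblasts, by 0.13 with siRNA 1 (called) and -0.06 with siRNA 2 (not called). Mrpl50, which fell with siRNA 2 in both stages, was not called (0.13 ± 0.05 SE, adjusted p = 0.0587, edgeR), nor were Mrps34 (-0.06) and Mrpl11 (-0.02).

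**Figure D4:**
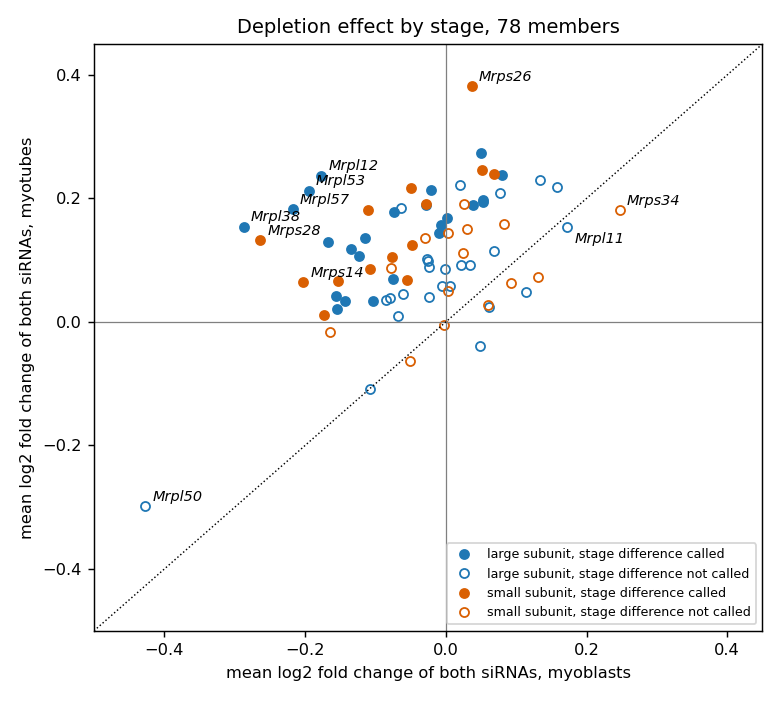
Mean log2 fold change of both siRNAs in myoblasts (horizontal) and myotubes (vertical) for the 78 members; filled points had a called difference between stages. The 38 filled points all have a higher value in myotubes, with Mrpl38 the largest difference (0.44), while Mrpl50 is low on both axes.

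Other genes of mitochondrial translation were followed from lists of known function. The shares of all genes to set beside them are 38.1% falling and 39.4% rising with differentiation, 16.5% and 17.1% with siRNA 2 in myoblasts, and 16.4% and 15.8% with siRNA 2 in myotubes. For siRNA 1 the falling and rising shares are 8.44% and 11.6% in myoblasts, and 9.57% and 11.0% in myotubes. Of 5 mitochondrial ribosomal proteins with other symbols (Dap3, Ptcd3, Chchd1, Gadd45gip1, Aurkaip1), 4 fell with differentiation, among them Dap3 (-0.45). With siRNA 2, Chchd1 (-0.29) and Ptcd3 (-0.12) fell in myoblasts, and 4 rose in myotubes (Aurkaip1 0.24, Ptcd3 0.21, Gadd45gip1 0.16, Dap3 0.15). For siRNA 1, 1 of these 5 fell and 0 rose in myoblasts, and 0 were called in myotubes. Of 20 genes for charging mitochondrial transfer RNAs, 10 fell and 1 rose with siRNA 2 in myoblasts (median -0.13), and 4 rose and 1 fell in myotubes, a rising share near the 15.8% of all genes. Tars2, the threonyl enzyme, fell in myoblasts (-0.27 and -0.50) and rose in myotubes (0.23 and 0.21), a tested difference of 0.60 ± 0.06 SE, adjusted p = 3.78e-07 (edgeR). Nars2, the asparaginyl enzyme, fell with both siRNAs in myotubes (-0.33 and -0.54).

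Of 26 factors of ribosome assembly and ribosomal RNA modification, 8 fell and 2 rose with siRNA 2 in myoblasts (all genes, 16.5% and 17.1%), led by the GTPase Mtg1 (-0.62) and the pseudouridine synthase Rpusd4 (-0.50). In myotubes 7 rose and 2 fell with siRNA 2 (all genes, 15.8% and 16.4%), Rpusd4 among the falls (-0.39). For siRNA 1, 3 of these factors rose and 3 fell in myoblasts, and 0 were called in myotubes. Of 15 translation factors, 4 fell and 1 rose with siRNA 2 in myoblasts (26.7% falling, against 16.5% of all genes), with falls of the recycling factor Gfm2 (-0.45) and Lrpprc, which stabilises mitochondrial messengers (-0.39). In myotubes 6 rose and 0 fell with siRNA 2 (against 15.8% and 16.4% of all genes), among them the insertase Oxa1l (0.33) and the elongation factors Gfm1 (0.30) and Tufm (0.25). For siRNA 1, 0 translation factors rose and 2 fell in myoblasts, and 2 rose and 0 fell in myotubes. Of 7 genes of mitochondrial transcription, Tfam (0.19), the polymerase Polrmt (0.17) and Tfb2m (0.15) rose with siRNA 2 in myotubes. With siRNA 1, 0 of the 7 were called in myoblasts and 0 in myotubes.

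Of 10 regulators of nuclear genes for mitochondria, 1 rose and 7 fell with differentiation, where 39.4% of all genes rose and 38.1% fell. The coactivator Ppargc1a rose (1.57), and Myc (-1.39), Nrf1 (-0.85) and Gabpa (-0.33) were among the falls; Nrf1 and Gabpa are named for their motifs, outside the naming rule and with their values known. In myotubes Ppargc1a rose from 9.78 ± 2.11 to 26.7 ± 4.77 CPM with siRNA 2 (1.46 ± 0.17 SE, adjusted p = 0.000533, edgeR) and was at 14.2 ± 0.509 CPM with siRNA 1 (0.55, edgeR adjusted p = 0.0652). Esrra, a nuclear receptor that works with Ppargc1a, fell in myoblasts from 43 ± 1.54 CPM to 35.4 ± 0.738 and 28.4 ± 2.34 (-0.28 and -0.60). Whether these regulators bear on the members was not tested.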

How the data were processed

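PolyA RNA of C2C12 myoblasts and myotubes was measured in 18 libraries. The authors deposited, for each stage, a table of estimated counts and a TPM value per Ensembl transcript, per the file headers, beside transcript lengths. For the quantifier, no name or version is stated in the sources used here. Per the submitters' processing notes, mm10 and DESeq2 were used. The estimated counts deposited carry no scaling between libraries, and the deposited TPM is a share within a library. GENCODE M21 matched 114200 of 115088 transcripts; the remaining 888, with 0.16% to 0.24% of the counts, were not used. Gene sums of the counts were rounded to whole numbers.

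Tests used edgeR 4.0.16 in R 4.3.3: filterByExpr with a minimum count of 10, TMM scaling, robust glmQLFit and glmQLFTest, and Benjamini-Hochberg adjustment over every gene tested. Calls needed an adjusted p below 0.05. Within a stage, 9 libraries shared a fit (6 residual degrees of freedom), and comparisons across stages used all 18 (12). CPM values are from the fit of their stage, except where stages are set side by side. Code was tested on simulated data.

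By rule the text names up to 6 called members with the largest rise and fall per comparison, members called with both siRNAs, the 5 highest and lowest by TPM, the leading stage differences and members of known role. The members and lists were chosen with earlier results of these data known. Alternatives were RLE scaling, DESeq2 1.42.0, no filter, limma 3.58.1 on log2(TPM + 1), a replicate block, the name prefix in the model, coding transcripts only, 1 fit of all libraries and leaving out each library. Summing libraries of the same prefix was added after seeing the data.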

Additional observations from a re-analysis of the deposited data

Results flagged for a closer look

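The mean effect of the 2 siRNAs to Setd2 differed between myotubes and myoblasts for 38 members, and each was higher in myotubes. This is by the test of that difference in the fit of all libraries. The siRNAs were not tested apart for it, and the median effect was 0.02 in myoblasts and 0.09 in myotubes for siRNA 1, and -0.07 and 0.14 for siRNA 2. The 6 largest were Mrpl38 (0.443 on the log2 scale), Mrpl12 (0.416), Mrpl53 (0.409), Mrpl57 (0.401), Mrps28 (0.398) and Mrps26 (0.346). No explanation was tested.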

How the results depend on the processing

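The larger direction of called members was the same under every alternative in 7 of the 8 comparisons; siRNA 1 in myoblasts lost it without control 2 (1 up, 1 down) and turned from 10 up and 1 down to 2 up and 7 down (9 in all) with limma on log2(TPM + 1), where the median of all genes was -0.05; with the name prefix in the model it gave 22 (13 up, 9 down) and with coding transcripts only 7; the cause was not tested. On the TPM scale siRNA 2 against siRNA 1 in myoblasts gave 18, siRNA 1 in myotubes 4, siRNA 2 in myotubes 22 and siRNA 2 against siRNA 1 in myotubes 9. With same-prefix libraries summed, which leaves fewer samples, siRNA 1 in myotubes gave 12 and siRNA 2 against siRNA 1 in myotubes 8. Leaving out each library gave 2 to 11 for siRNA 1, 18 to 26 for siRNA 2 and 19 to 27 for siRNA 2 against siRNA 1 in myoblasts, 10 to 26, 33 to 46 and 6 to 21 for the same in myotubes, 62 to 68 for differentiation and 25 to 37 for the difference between stages. Same-numbered libraries did not all deviate together (r from -0.151 to 0.303 in myoblasts and -0.101 to 0.142 in myotubes), so the numbers do not pair them. Deviations did go with the name prefix. In myoblasts r was 0.034 to 0.303 for pairs of the same prefix and -0.374 to -0.054 for other pairs. In myotubes it was -0.028 to 0.142 and -0.2 to 0.007. The main fits hold no prefix term, which was added only as an alternative. With the replicate block the counts were 12, 34 and 33 in myoblasts, 20, 43 and 22 in myotubes, 69 for differentiation and 40 for the difference. No prefix term can be fitted for differentiation, since the stages share no prefix. Of 62 calls of named members that were followed, those leading each comparison, 43 held in all alternatives. The large-to-small ratio on the CPM scale was 1.786, 1.774 and 1.752 in control, siRNA 1 and siRNA 2 myoblasts and 1.897, 1.907 and 1.873 in myotubes. With subunits assigned by structure it was 2.011, 2.007, 1.96, 2.096, 2.131 and 2.062. With coding transcripts only it was 1.697, 1.713, 1.628, 1.796 and, with siRNA 2 in myotubes, 1.744. Leaving out each library gave ratios of 1.719 to 1.752, 1.734 to 1.755, 1.67 to 1.694, 1.822 to 1.832, 1.848 to 1.858 and 1.79 to 1.793.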

Other observations

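The 78 genes have 300 annotated transcripts, of which 153 are protein-coding, 75 retain an intron, 54 are processed and 18 are marked for nonsense-mediated decay. Coding transcripts held 86.35% to 87.46% of the set's estimated counts in a library, and retained-intron transcripts 5.67% in control myoblasts and 5.14% in control myotubes. Noncoding transcripts held less than 10% of the estimated count of 54 members. They held most of it for 6: Mrpl32 (all of it, its 1 listed transcript being marked for decay), Mrpl3 (74.3%), Mrps26 (67.7%), Mrpl15 (67.6%), Mrpl51 (62.0%) and Mrps14 (56.5%). Exon bases were shared with another gene by 33 members, with a coding one by 23.

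Across the 18 libraries, which differ mainly by stage, the median Pearson r of a member with the sum of the others was 0.845, with 47 members above 0.5 and 22 below 0. Mrpl12 was highest (0.963), and Mrps21 (-0.788), Mrpl23 (-0.76) and Mrpl24 (-0.737) lowest. Outside the set, the genes most like its sum were Rpl36 (0.973), Timm13 (0.968), Txn2 (0.967), Ube2m (0.966) and Gle1 (0.966). These values are a description, without a test.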
